A study of Macaca mulatta with 24 samples.

Results

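The comparison described here is the effect of a Western-style diet (*WSD*) in female rhesus macaques that all carried testosterone implants. It set 6 animals given testosterone and the diet (*T* + *WSD*, numbered 7 to 12) against 6 animals given testosterone and monkey chow (*T*, numbered 13 to 18), that is 12 of the 24 animals of the study. Gene expression was measured by RNA-seq in omental (visceral) white adipose tissue (WAT) biopsied in year 3 of treatment, with 1 library for each animal. The remaining 12 animals carried control implants of cholesterol, 6 on chow (*C*) and 6 on the high-fat diet (*WSD*), and they are used here for the same diet effect without testosterone. Testosterone implants are therefore common to both groups of the main comparison. All animals were young adults, whose age the labels give as 4 years, although the methods of the study give an older age at biopsy. The study picked these 24 animals as representative of their groups in fat mass and insulin, which limits the groups as random samples of treated animals. The deposited table holds 32386 genes, and 15207 of them had enough counts to be tested.

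Visceral white fat stores triglyceride in adipocytes, which take up fatty acids, esterify them, and release them again when catecholamines raise cAMP. Omental fat is also wrapped in mesothelium, a sheet of keratin-rich epithelium, and it holds endothelium, fibroblasts and macrophages. A high-fat diet enlarges adipocytes, and macrophages that take up lipid, iron and cell debris gather around dying ones. Androgens act on fat through the androgen receptor and alter fat storage and insulin response in females.

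The 12 libraries held between 6899185 and 28270776 counts, and levels are given as counts per 1000000 of the effective library size, the counts in tested genes scaled by the TMM factor (CPM). In 4 of them (*T* 13 and 14, *T* + *WSD* 7 and 8) between 19.9% and 54.7% of all counts came from ENSMMUG00000038258, a gene ID that has no symbol, against 0.879% to 2.24% in the other 8. These libraries fell evenly on both sides, 2 in each group. The adipocyte markers were present in every library. PLIN1, the coat protein of the adipocyte lipid droplet, ranged over 1202, 1635 and 2592 CPM in *T* and 1654, 2037 and 2353 CPM in *T* + *WSD*, in order of the lowest, median and highest animal. The same 3 figures for ADIPOQ, the adipokine adiponectin, were 907, 1482 and 2124 CPM in *T* and 779, 1158 and 1722 CPM in *T* + *WSD*. The 2 groups overlapped in both genes and neither passed the test. Markers of tissues that a biopsy could carry along were low in the 12 animals. Their summed levels were at most 101.9 CPM for hepatocytes, 86.4 CPM for red cells, 81.9 CPM for skeletal muscle and 1.62 CPM for pancreas. No pancreas marker had enough counts to be tested. None of the 3 hepatocyte, 4 red cell and 4 skeletal muscle markers tested was called. Their median log2 fold changes in *T* + *WSD* against *T* were 0.476, -0.975 and 0.954 in that order.

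The largest axis of variation among the 12 animals followed the diet. On the first principal component of the 500 most variable genes, which held 35.7% of the variance, the *T* animals scored between -19.3 and -3.24 and the *T* + *WSD* animals between 7.99 and 17.2. The group means differed by 24.7, with a two-sided exact permutation p = 0.00216 over all splits of the 12 animals into 2 sets of 6, the smallest p this design can give. Among the 8 libraries without the dominant gene the difference was 27.3, with an exact permutation p = 0.0286, the smallest that 70 splits can give.

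Differentially expressed genes (DEGs) were those with a Benjamini-Hochberg adjusted p under 0.05 in edgeR's quasi-likelihood test and a change of more than 1.5-fold. By this rule 574 genes, 3.77% of those tested, changed with the diet in testosterone-treated animals. Of these, 356 (2.34% of the tested genes) were higher and 218 (1.43%) were lower in *T* + *WSD*. These 2 shares are the background to the counts by gene list below. The median log2 fold change was 1.08 among the higher genes and -1.14 among the lower genes, while that of all tested genes was -0.03. More than 2-fold changes were seen in 209 higher and 131 lower genes, and more than 4-fold changes in 57 and 37. Without the fold threshold, 988 genes (6.5%) passed, and 25.9% of all genes had an unadjusted p under 0.05. The 6 animals of one group lay wholly above or below the 6 of the other in 210 of the higher and 100 of the lower DEGs. Over all tested genes, 2.99% had every *T* + *WSD* animal above every *T* animal, 3.1% had every one below, and 6.1% were separated one way or the other.

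The number of DEGs varied with the animals in the fit, while no DEG changed direction. Leaving out 1 animal of the 24 gave between 238 DEGs, without *T* + *WSD* 10, and 828, without *C* 1, and in all 24 of these fits every DEG had the sign it had with all animals. All 574 DEGs had the same sign in the 8 libraries without the dominant gene, and 570 had it in the 4 libraries with it. A fit to the 16 libraries of the study without the dominant gene, 4 in each group, called 308 genes, 199 higher and 109 lower, of which 197 were among the 574. The summed level of 15 mesothelial marker genes also differed with the diet, from a lowest, median and highest of 3894, 5226 and 19230 CPM in *T* to 550.9, 1635 and 3926 CPM in *T* + *WSD*. Such a sum is weighted to its most abundant members, and MSLN, KRT19 and ALDH1A3 reached at most 719, 447 and 783 CPM in *T*. With the mean log2 CPM of the 15 markers as a covariate edgeR called 0 genes, the smallest adjusted p being 0.0802. In that fit 1305 genes (8.58%) had an unadjusted p under 0.05. In this covariate fit 558 of the 574 DEGs kept their sign. The median absolute log2 fold change of the 574 was 0.719 in place of 1.12, and their median SE was 0.344 in place of 0.281. The covariate itself differed between *T* and *T* + *WSD*, so this fit cannot separate the marker level from the diet. In bulk tissue fewer cells of a type and less RNA per cell cannot be told apart.

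**Figure D1:**
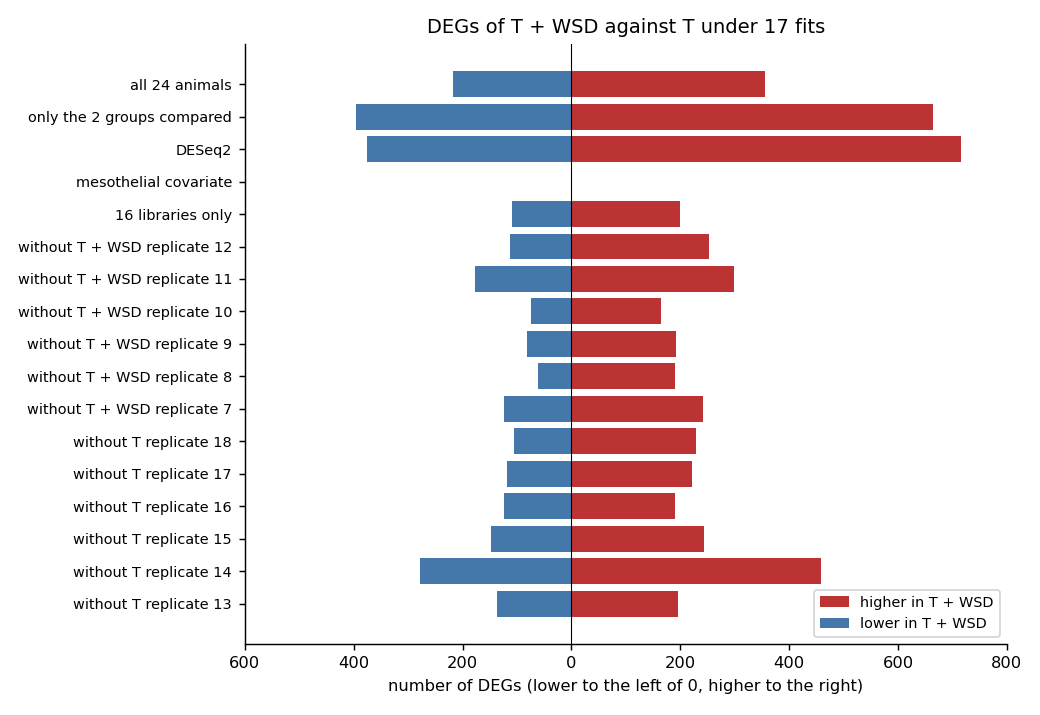
Number of genes called differentially expressed between *T* + *WSD* and *T* (adjusted p under 0.05 and more than 1.5-fold). Bars are for the fit of all 24 animals, 4 other fits and fits without each of the 12 animals compared. The bar named DESeq2 is from that tool, and all other bars are from edgeR. Higher genes are to the right of 0 and lower genes to the left. All 24 animals give 356 higher and 218 lower genes, and the fit with the mesothelial marker level as a covariate gives 0.

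The largest increases that separated all animals, among genes with a symbol, were led by SLC24A2 and NRCAM. SLC24A2 (ENSMMUG00000020651), a potassium-dependent sodium and calcium exchanger, ranged over 0, 0.0543 and 0.375 CPM in *T* and 5.12, 29.5 and 47.6 CPM in *T* + *WSD*. It was close to undetected in *T* and present in every *T* + *WSD* animal (log2 fold change 7.86 ± 1.48, edgeR adjusted p = 0.00605), and its fold change rests on very few counts in *T*. NRCAM (ENSMMUG00000021293), a neuronal cell adhesion molecule of the immunoglobulin family, ranged over 0.781, 1.62 and 2.60 CPM in *T* and 18.3, 69.4 and 113 CPM in *T* + *WSD* (log2 fold change 5.48 ± 0.83, edgeR adjusted p = 0.0016). Every *T* + *WSD* animal exceeded every *T* animal, including *T* + *WSD* 12, which was the lowest of its group by a wide gap. BHMT2, a homocysteine methyltransferase, ranged over 0, 0.179 and 0.629 CPM in *T* and 4.95, 8.59 and 13.5 CPM in *T* + *WSD* (log2 fold change 5.40 ± 0.98, edgeR adjusted p = 0.00557). SLC26A7, an anion transporter, ranged over 1.72, 2.82 and 15.3 CPM in *T* and 63.8, 138 and 264 CPM in *T* + *WSD* (log2 fold change 4.66 ± 1.13, edgeR adjusted p = 0.0221). Both genes had fully separated groups. The other genes of the 10 largest separated increases were MMP7 (4.67 ± 0.98), DCSTAMP (4.37 ± 1.18), CHIT1 (3.65 ± 1.09), WDR64 (3.53 ± 0.69), TM4SF19 (3.10 ± 0.81) and MMP17 (3.09 ± 0.75), given as log2 fold change with its SE. MMP7, DCSTAMP and WDR64 had medians of 0.196, 0.0169 and 0.328 CPM in *T*. Their fold changes, and that of BHMT2, also rest on few counts in *T*. DCSTAMP is a membrane protein needed for the fusion of osteoclasts and macrophages, and MMP7 and MMP17 are matrix metalloproteinases.

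The largest decreases among genes whose groups did not overlap were those of alcohol dehydrogenase 1B, which oxidises ethanol and retinol. The gene ID ENSMMUG00000047850 named ADH1B ranged over 1331, 1639 and 3667 CPM in *T* and 132, 204 and 543 CPM in *T* + *WSD* (log2 fold change -2.99 ± 0.40, edgeR adjusted p = 0.00114). All 6 *T* + *WSD* animals lay below all 6 *T* animals, and the adjusted p equalled the smallest of the comparison. A second ID with the same name, ENSMMUG00000018738, also separated the groups (-3.87 ± 0.98), but reads may have been split between IDs of 1 name, so both values are uncertain. ASIC2, an acid-sensing ion channel, ranged over 1.30, 2.20 and 4.40 CPM in *T* and 0.165, 0.361 and 0.499 CPM in *T* + *WSD* (log2 fold change -2.73 ± 0.50, edgeR adjusted p = 0.00566). KLK11, a kallikrein-related serine protease, ranged over 5.75, 9.26 and 32.1 CPM in *T* and 0.565, 2.23 and 3.91 CPM in *T* + *WSD* (log2 fold change -2.38 ± 0.50, edgeR adjusted p = 0.0133). MME, the membrane peptidase neprilysin, ranged over 36.5, 68.9 and 91.6 CPM in *T* and 6.22, 12.6 and 22.1 CPM in *T* + *WSD* (log2 fold change -2.31 ± 0.50, edgeR adjusted p = 0.0139). In each of these genes the highest *T* + *WSD* animal stood below the lowest *T* animal. The 10 largest separated decreases also held KRT19 (-2.45 ± 0.49), NNAT (-2.18 ± 0.55), FHAD1 (-2.11 ± 0.56), PLIN5 (-2.09 ± 0.62) and GREB1L (-2.07 ± 0.58). NNAT is neuronatin, an imprinted membrane protein of the endoplasmic reticulum, and PLIN5 is the lipid droplet coat protein of tissues that oxidise fat.

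**Figure D2:**
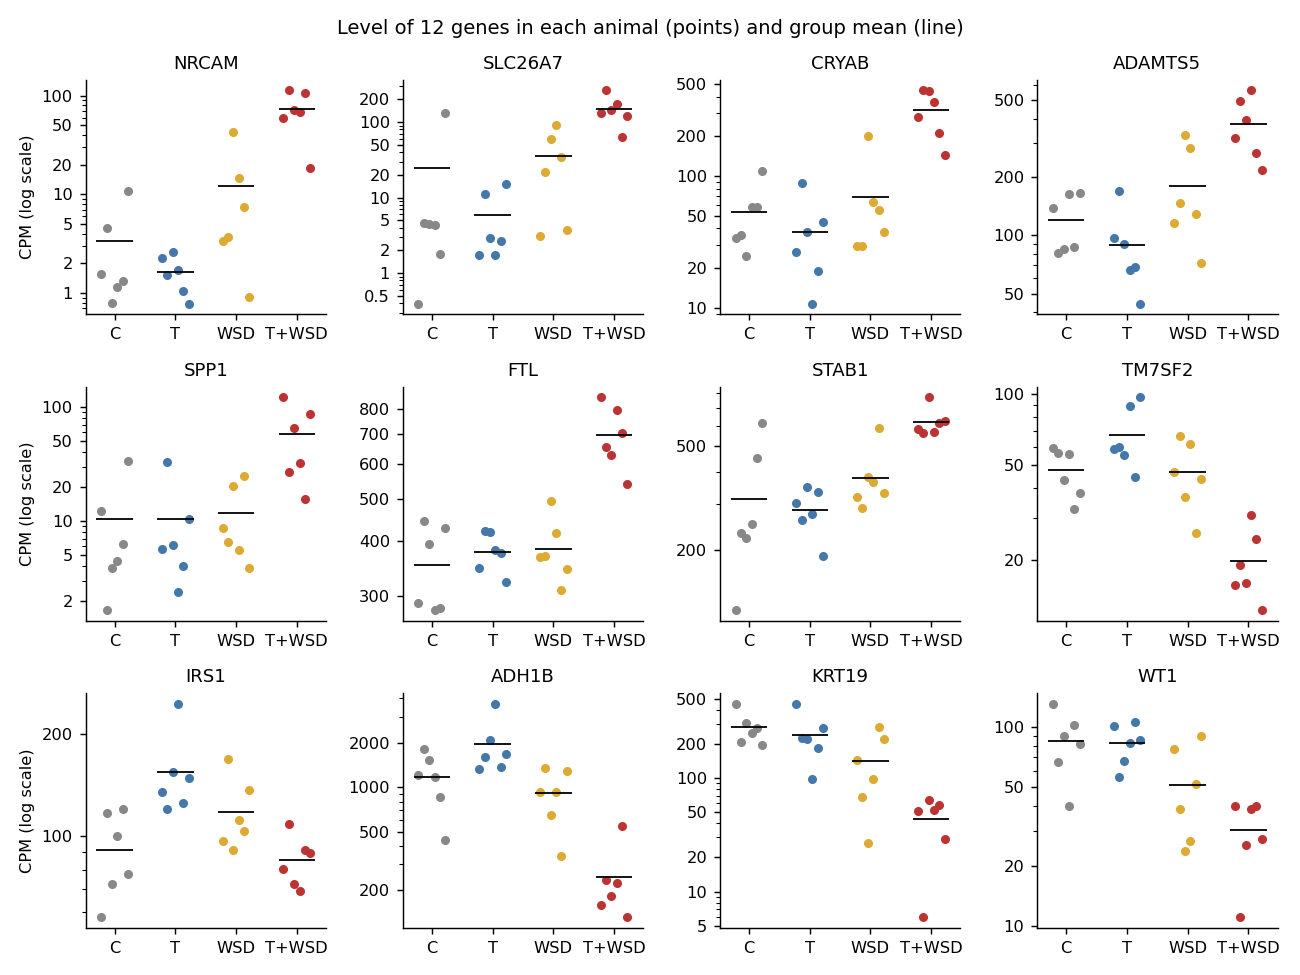
Level of 12 genes in each of the 24 animals (CPM, log axis), by group, each point 1 animal and each line the group mean. NRCAM lies between 0.781 and 2.60 CPM in *T* and between 18.3 and 113 CPM in *T* + *WSD*, and ADH1B lies between 1331 and 3667 CPM in *T* and between 131.5 and 543.1 CPM in *T* + *WSD*.

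The mesothelial list held the largest share of decreases. Of its 15 tested markers 8 fell and none rose, beside 1.43% of all tested genes that fell. Of the 15, 14 had a negative log2 fold change, and their median was -1.57 against -0.03 for all genes. KRT19, a keratin of simple epithelia, ranged over 97.4, 224 and 447 CPM in *T* and 5.94, 52.2 and 64.7 CPM in *T* + *WSD* (log2 fold change -2.45 ± 0.49, edgeR adjusted p = 0.00957). MSLN, the surface protein mesothelin that defines the cell type, ranged over 150, 254 and 719 CPM in *T* and 17.7, 61.6 and 151 CPM in *T* + *WSD* (log2 fold change -2.23 ± 0.64, edgeR adjusted p = 0.0429). UPK3B, a uroplakin of the mesothelial surface, ranged over 151, 256 and 390 CPM in *T* and 9.61, 76.8 and 119 CPM in *T* + *WSD* (log2 fold change -1.92 ± 0.52, edgeR adjusted p = 0.0343). The groups were separated in KRT19 and UPK3B and overlapped at 1 edge in MSLN. WT1, a transcription factor of mesothelium and its precursors, fell (log2 fold change -1.43 ± 0.33, edgeR adjusted p = 0.0183), as did the keratins KRT18 (-2.33 ± 0.58) and KRT7 (-3.92 ± 0.98). In the list of keratins and epithelial junction genes, which shares several of these members, 6 of 18 were lower and none higher, with a median of -1.50. *T* + *WSD* 8 was the lowest library of its group in WT1 (11 CPM) and KRT19 (5.94 CPM), and without it 4 mesothelial markers were called rather than 8, while without *T* + *WSD* 9 the number was 4 and without *T* + *WSD* 12 it was 5. In the 16 libraries without the dominant gene 1 was called.

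Single genes of retinoid, eicosanoid and complement pathways fell as well. ALDH1A3, which makes retinoic acid and is also on the mesothelial list, ranged over 464, 576 and 783 CPM in *T* and 167, 319 and 354 CPM in *T* + *WSD* (log2 fold change -1.02 ± 0.24, edgeR adjusted p = 0.0203). ALOX15, a lipoxygenase that oxidises arachidonic and linoleic acid, ranged over 375, 491 and 957 CPM in *T* and 56.8, 204 and 253 CPM in *T* + *WSD* (log2 fold change -1.62 ± 0.44, edgeR adjusted p = 0.0341). Both genes separated the groups. CFB, complement factor B of the alternative pathway, fell (log2 fold change -1.33 ± 0.40, edgeR adjusted p = 0.0479), as did GATA6, a transcription factor of visceral mesoderm (log2 fold change -1.04 ± 0.27, edgeR adjusted p = 0.0293), and PTGFR, the prostaglandin F receptor (log2 fold change -1.95 ± 0.53, edgeR adjusted p = 0.0329). Counted by list, 2 of 21 retinoid genes fell, ALDH1A3 and the ADH1B ID ENSMMUG00000018738, as ENSMMUG00000047850 was not on the list. So did 2 of 21 eicosanoid genes, 1 of 16 complement genes and 2 of 7 depot identity factors (GATA6 and WT1). None rose in these lists, and 1.43% of all tested genes fell. The summed mesothelial markers had a lower median in the same group. In the fit with the mesothelial markers as a covariate no gene was called. There the log2 fold changes were -4.69 for ADH1B ENSMMUG00000018738 and -2.92 for ADH1B ENSMMUG00000047850. They were -0.28 for GATA6, -0.22 for ALDH1A3, -0.20 for PTGFR, -0.0094 for ALOX15 and 0.185 for CFB. ALDH1A3 is itself part of that covariate.

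Among genes of macrophages that have taken up lipid, 5 of 18 rose and none fell, beside 2.34% of all tested genes that rose. Their median log2 fold change was 0.62. An unadjusted p under 0.05 on the higher side was seen in 10 of 18, against 25.9% of all genes on either side. CHIT1 (ENSMMUG00000008709), the chitinase of activated macrophages, ranged over 5.37, 14.7 and 117 CPM in *T* and 139, 176 and 1225 CPM in *T* + *WSD* (log2 fold change 3.65 ± 1.09, edgeR adjusted p = 0.0474). SPP1, the secreted phosphoprotein osteopontin, ranged over 2.40, 5.90 and 33.3 CPM in *T* and 15.5, 48.9 and 122 CPM in *T* + *WSD* (log2 fold change 2.53 ± 0.72, edgeR adjusted p = 0.0401). TREM2, the lipid-sensing receptor that defines these cells, ranged over 0.875, 3.40 and 5.93 CPM in *T* and 3.96, 10.4 and 23.9 CPM in *T* + *WSD* (log2 fold change 1.79 ± 0.50, edgeR adjusted p = 0.0364). CHIT1 separated the groups, whereas SPP1 and TREM2 overlapped. MMP9, a gelatinase secreted by myeloid cells, also separated them (log2 fold change 2.27 ± 0.66, edgeR adjusted p = 0.0446). These calls sat close to the threshold: without *T* 13, 15, 16, 17 or 18 or without *T* + *WSD* 7, 9, 10 or 12 the list had 0 calls, without *T* + *WSD* 8 it had 1, and without *WSD* 23 it had 3. In the 16 libraries without the dominant gene it also had 0. The list also holds LPL and CD36, which adipocytes express, and neither was called.

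General macrophage markers held fewer calls. Of 16 tested, 2 were higher and none lower, with a median of 0.33. MSR1, the class A scavenger receptor, ranged over 3.28, 10.6 and 22.2 CPM in *T* and 20.9, 39.03 and 75.1 CPM in *T* + *WSD* (log2 fold change 1.82 ± 0.50, edgeR adjusted p = 0.0361), with a slight overlap. STAB1, the scavenger receptor stabilin-1, ranged over 191, 290 and 350 CPM in *T* and 563, 600 and 772 CPM in *T* + *WSD* (log2 fold change 1.12 ± 0.27, edgeR adjusted p = 0.0226), with none. CD68 (0.71 ± 0.45, adjusted p = 0.323) and CD163 (0.43 ± 0.27, adjusted p = 0.326), both defining markers, did not pass in edgeR. The summed level of the list had a lowest, median and highest of 982.4, 1479 and 2446 CPM in *T* and 1732, 2222 and 2539 CPM in *T* + *WSD*, so that the groups overlapped. Lysosomal genes, which macrophages and adipocytes share, had 2 of 26 higher and none lower, beside 2.34% of all tested genes that were higher. The 2 were CTSZ, the protease cathepsin Z, at 0.67 ± 0.20 and ATP6V1A, a subunit of the proton pump, at 0.68 ± 0.20. Of the 24 fits that left out 1 animal, 18 lost the call of CTSZ and 17 that of ATP6V1A. Other immune lists gave 1 call each. IL4I1, an amino acid oxidase of myeloid cells, and CD22, a surface lectin of B cells, were higher, and S100A9, a calcium-binding protein of neutrophils, and the interferon-stimulated gene IFI6 were lower. None of the 13 tested T and NK cell markers or of the 13 chemokines and their receptors was called.

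Iron handling was the list with the most increases for its size, 4 of 12 and none lower, beside 2.34% of all tested genes that were higher. The median log2 fold change of the list was only 0.12. FTL (ENSMMUG00000003909), the light chain of the iron store ferritin, ranged over 324, 380 and 423 CPM in *T* and 541, 680 and 850 CPM in *T* + *WSD* (log2 fold change 0.88 ± 0.14, edgeR adjusted p = 0.00247). TFRC, the transferrin receptor that brings iron into cells, ranged over 40.7, 54.5 and 61.7 CPM in *T* and 76.1, 95.1 and 154 CPM in *T* + *WSD* (log2 fold change 0.998 ± 0.20, edgeR adjusted p = 0.0101). HEPH, the ferroxidase hephaestin that accompanies iron export, ranged over 12.6, 17.4 and 24.1 CPM in *T* and 31.2, 39.05 and 52.8 CPM in *T* + *WSD* (log2 fold change 1.19 ± 0.33, edgeR adjusted p = 0.0345). All 3 separated the groups. FTH1, the ferritin heavy chain, overlapped at 1 edge and also rose (log2 fold change 0.69 ± 0.16, edgeR adjusted p = 0.0207). NQO1, a quinone reductase and target of NRF2, ranged over 15.2, 37.9 and 81.7 CPM in *T* and 132, 148 and 188 CPM in *T* + *WSD* (log2 fold change 1.98 ± 0.41, edgeR adjusted p = 0.0116), with the groups separated, and was the single call among 19 genes of NRF2 and peroxide defence. CRYAB, a small heat shock protein, ranged over 10.7, 31.9 and 87.8 CPM in *T* and 144, 321 and 446 CPM in *T* + *WSD* (log2 fold change 3.07 ± 0.54, edgeR adjusted p = 0.00467), while the other 17 genes of the heat shock and chaperonin list were not called and its median was -0.21.

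Matrix and vessel genes held increases and no call among collagen genes. None of 18 collagen genes was called, with a median of -0.07, and none of 15 fibroblast and progenitor markers. Among 16 matrix proteases and inhibitors 3 were higher (MMP7, MMP9 and ADAMTS5) and 1 lower (MMP19, -1.05 ± 0.29). ADAMTS5, the protease aggrecanase 2, ranged over 44.4, 79.1 and 169 CPM in *T* and 217, 356 and 561 CPM in *T* + *WSD* (log2 fold change 2.08 ± 0.36, edgeR adjusted p = 0.00459). SVEP1, a large extracellular matrix protein, ranged over 416, 502 and 797 CPM in *T* and 907, 1164 and 2032 CPM in *T* + *WSD* (log2 fold change 1.24 ± 0.23, edgeR adjusted p = 0.00566). In both genes the lowest *T* + *WSD* animal exceeded the highest *T* animal. The endothelial list had 1 of 17 called (ROBO4, an endothelial guidance receptor, log2 fold change 0.75 ± 0.18, edgeR adjusted p = 0.0198), but 16 of its 17 log2 fold changes were positive, with a median of 0.35. VWF, the von Willebrand factor (0.57 ± 0.22), and PECAM1 (0.49 ± 0.16) did not pass, though every *T* + *WSD* animal exceeded every *T* animal in PECAM1. VEGFC, the growth factor of lymphatic vessels, rose (log2 fold change 0.90 ± 0.19, edgeR adjusted p = 0.0139), and so did EPAS1, the hypoxia-inducible factor HIF-2 alpha (log2 fold change 0.61 ± 0.15, edgeR adjusted p = 0.0262), the 2 calls among 21 angiogenesis signals. The lymphatic endothelial list had none of 5 called. Of 12 smooth muscle and pericyte markers 2 rose, TAGLN, the actin-binding protein transgelin (log2 fold change 1.05 ± 0.27, edgeR adjusted p = 0.0261), and RGS5, a regulator of G protein signalling in pericytes (log2 fold change 0.94 ± 0.28, edgeR adjusted p = 0.0489), while the median of that list was -0.16. Their summed level ran from 1565 to 1765 CPM in *T* and from 2066 to 2799 CPM in *T* + *WSD*.

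**Figure D3:**
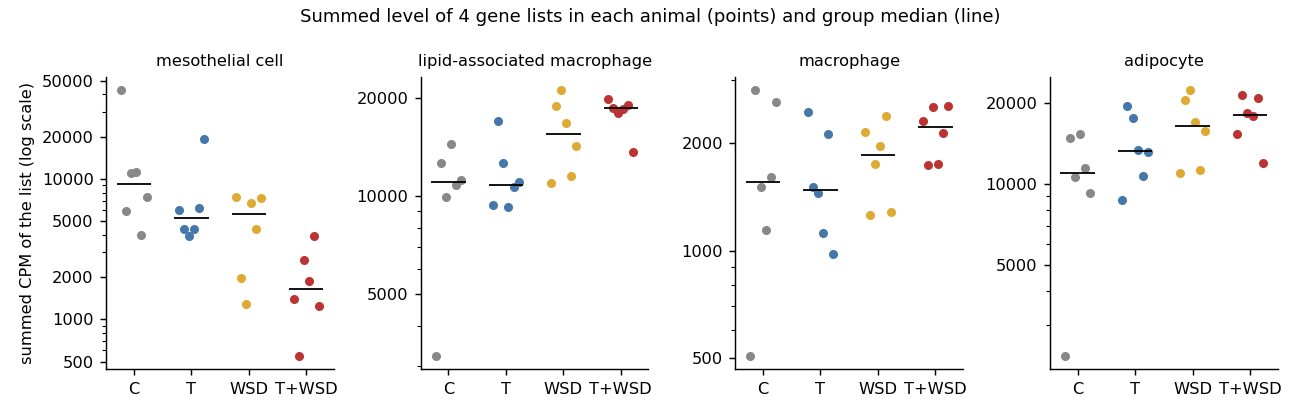
Summed level of the members of selected gene lists in each of the 24 animals (CPM, log axis), by group, each point 1 animal and each line the group median. The mesothelial sum runs from 3894 to 19230 CPM in *T* and from 550.9 to 3926 CPM in *T* + *WSD*, and the macrophage sum from 982.4 to 2446 CPM and from 1732 to 2539 CPM.

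Adipocyte genes and the enzymes of fat storage held few calls. None of 14 adipocyte markers, 15 genes of triglyceride synthesis, 13 of de novo lipogenesis or 12 of fatty acid uptake was called. LEP, the adipokine leptin, ranged over 42.95, 166 and 816 CPM in *T* and 592, 1350 and 1576 CPM in *T* + *WSD*, with a log2 fold change of 2.15 ± 0.74 that did not pass (edgeR adjusted p = 0.0776), and only *T* + *WSD* 12 lay within the range of *T*. CD36, the fatty acid translocase, had 0.66 ± 0.28 (adjusted p = 0.144) and FABP4 (ENSMMUG00000041192), the adipocyte fatty acid binding protein, 0.53 ± 0.27 (adjusted p = 0.225) in the same edgeR fit. Of 10 lipid droplet coat genes PLIN3, the perilipin of small droplets in many cell types, rose (log2 fold change 1.03 ± 0.26, edgeR adjusted p = 0.025), while PLIN5 (log2 fold change -2.09 ± 0.62, edgeR adjusted p = 0.0473) and CIDEB, which acts in lipid droplet and lipoprotein handling (log2 fold change -2.10 ± 0.52, edgeR adjusted p = 0.025), fell. CIDEB was at 14.5 CPM in *T* 17 and at most at 2.54 CPM in the other *T* animals. The single call among 16 genes of lipolysis and its control was NPR3, the clearance receptor for natriuretic peptides, which ranged over 4.25, 16.7 and 62.1 CPM in *T* and 57.1, 112 and 157 CPM in *T* + *WSD* (log2 fold change 2.40 ± 0.71, edgeR adjusted p = 0.0458), with *T* + *WSD* 12 again the lowest of its group. In cAMP signalling 2 of 30 genes rose, beside 2.34% of all tested genes. The 2 were PDE7A, a cAMP phosphodiesterase (0.63 ± 0.15), and AKAP12, an anchoring protein of protein kinase A (1.01 ± 0.25). Of the 30 log2 fold changes 23 were positive.

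Mitochondrial genes leaned lower without passing the test one by one. All 28 respiratory chain genes and all 19 genes of fatty acid oxidation had a negative log2 fold change, with medians of -0.26 and -0.29, and 16 of 18 genes of the TCA cycle did, with a median of -0.28. The sole DEG among these 3 lists was ECI1, an isomerase that prepares unsaturated fatty acids for oxidation, which ranged over 24.7, 31.6 and 46.9 CPM in *T* and 18.3, 20.4 and 26.9 CPM in *T* + *WSD* (log2 fold change -0.65 ± 0.20, edgeR adjusted p = 0.0487). The summed level of the respiratory chain genes had a lowest, median and highest of 2530, 3174 and 4625 CPM in *T* and 2631, 2646 and 3054 CPM in *T* + *WSD*, and the groups overlapped. Members of 1 complex move together across libraries, so these counts are not independent. Breakdown of branched-chain amino acids had 2 of 20 lower and none higher, with a median of -0.43 and 11 genes at an unadjusted p under 0.05 on the lower side. BCAT2, the mitochondrial transaminase that starts the pathway, ranged over 26.1, 37.4 and 38.8 CPM in *T* and 15.6, 18.1 and 27.7 CPM in *T* + *WSD* (log2 fold change -0.76 ± 0.17, edgeR adjusted p = 0.0151). ALDH6A1, the dehydrogenase of the valine branch, ranged over 86.4, 149 and 247 CPM in *T* and 57.6, 70.3 and 104 CPM in *T* + *WSD* (log2 fold change -1.07 ± 0.23, edgeR adjusted p = 0.0143). The groups overlapped slightly in both. In cholesterol synthesis 14 of 17 genes were negative, with a median of -0.48 and 1 call, TM7SF2, a sterol reductase late in the pathway, which ranged over 44.9, 59.3 and 97.2 CPM in *T* and 12.2, 17.4 and 30.9 CPM in *T* + *WSD* (log2 fold change -1.78 ± 0.25, edgeR adjusted p = 0.00114), and all *T* + *WSD* animals lay below all *T* animals. None of 14 LXR targets was called.

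Insulin signalling genes moved in both directions. IRS1, the insulin receptor substrate, ranged over 120, 142 and 244 CPM in *T* and 69.2, 84.9 and 109 CPM in *T* + *WSD* (log2 fold change -0.86 ± 0.20, edgeR adjusted p = 0.0178). PIK3R1, the regulatory subunit of the phosphoinositide 3-kinase that IRS1 recruits, ranged over 296, 364 and 398 CPM in *T* and 432, 670 and 876 CPM in *T* + *WSD* (log2 fold change 0.91 ± 0.20, edgeR adjusted p = 0.0159). The groups were separated in both genes, lower for IRS1 and higher for PIK3R1, and the other 16 of the 18 genes were not called. HK2, the insulin-responsive hexokinase, was the single call among 14 glycolysis genes (log2 fold change 1.39 ± 0.37, edgeR adjusted p = 0.0316). Of 14 steroid receptors and converting enzymes, ESR1, the oestrogen receptor alpha, fell (log2 fold change -0.81 ± 0.23, edgeR adjusted p = 0.0369) and STS, the sulphatase that frees steroids from their sulphates, rose (log2 fold change 1.26 ± 0.36, edgeR adjusted p = 0.0399).

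Among developmental signals, 3 of 24 Wnt genes fell and 1 rose, with a median of -0.60. WNT3, a canonical Wnt ligand, ranged over 3.66, 5.91 and 14.7 CPM in *T* and 2.35, 2.71 and 3.29 CPM in *T* + *WSD* (log2 fold change -1.33 ± 0.35, edgeR adjusted p = 0.0307), and its groups were separated. WNT9A (-0.99 ± 0.25) and WNT5B (-1.57 ± 0.45) fell, the latter at levels under 2 CPM. RSPO3, a secreted amplifier of Wnt signals, ranged over 4.22, 6.87 and 13.7 CPM in *T* and 14.4, 21.3 and 50.03 CPM in *T* + *WSD* (log2 fold change 1.68 ± 0.33, edgeR adjusted p = 0.00734), also separated, and in the opposite direction. DKK2, a Wnt antagonist, had 1.59 ± 0.50 and did not pass (edgeR adjusted p = 0.0573). SMAD3, a transducer of TGF-beta, was the single call among 23 genes of that family (0.77 ± 0.21), and TCF7L2, a transcription factor of the Wnt pathway, the single call among 16 adipogenic factors (0.59 ± 0.14). Of 17 clock genes 3 fell, all of them PAR-domain factors driven by the clock, DBP (log2 fold change -0.82 ± 0.24, edgeR adjusted p = 0.0431), TEF (log2 fold change -0.89 ± 0.24, edgeR adjusted p = 0.0349) and HLF (log2 fold change -0.82 ± 0.20, edgeR adjusted p = 0.0218), and 15 of the 17 were negative. Of 13 immediate early genes, which respond quickly to stimulation of a cell, 12 were negative, with a median of -0.65 and 1 call, JUND (log2 fold change -0.76 ± 0.22, edgeR adjusted p = 0.0444).

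Cytosolic ribosomal protein genes showed a small difference in 1 direction. None of 40 was a DEG, yet 39 were negative, with a median of -0.30. Of the 40, 32 had an unadjusted p under 0.05, beside 25.9% of all tested genes, and 12 separated the groups, beside 6.1%. The summed level of the 40 genes had a lowest, median and highest of 10240, 11830 and 13410 CPM in *T*. In *T* + *WSD* these were 8871, 9416 and 9787 CPM, so that the highest *T* + *WSD* animal lay below the lowest *T* animal. The proteasome list, by contrast, had a median of -0.10 over 27 genes and no call. Lists for cell division (21 genes), the unfolded protein response (17) and adipokines (10) also held no DEG.

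**Figure D4:**
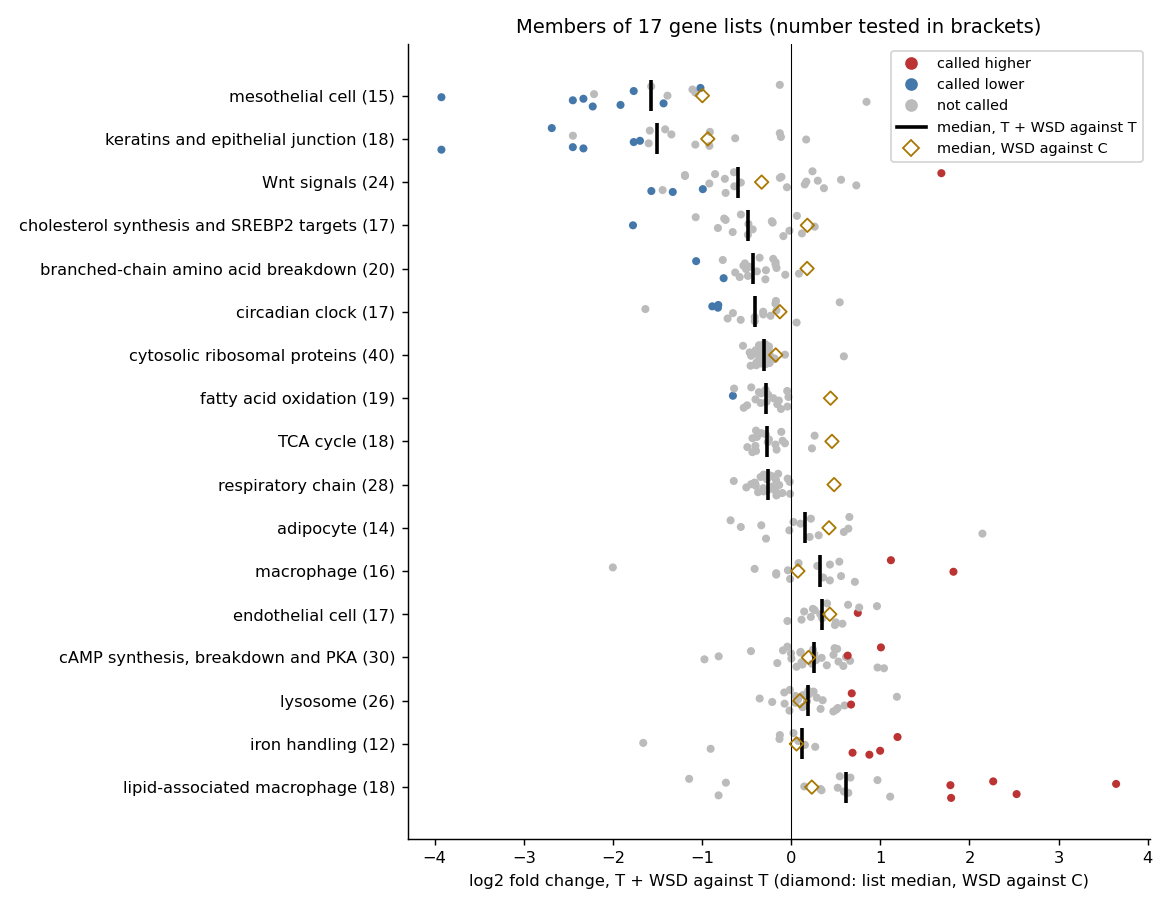
Log2 fold change with the diet in testosterone-treated animals (*T* + *WSD* minus *T*) for each tested member of 17 gene lists, 1 point a gene, coloured where it is a DEG. Black lines mark the list medians and diamonds the medians without testosterone (*WSD* minus *C*). The mesothelial list sits at -1.57 and -0.997, the respiratory chain list at -0.26 and 0.48, and the median of all tested genes is -0.03 and -0.02.

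Of 42 gene names taken from the text of the study, which names more, 6 were higher and 2 lower with the diet under testosterone. They were picked from results on the same animals, so these counts are not independent evidence. The higher genes were NRCAM, MSR1, RYR2, SVEP1, PLIN3 and FTL. RYR2, the calcium release channel, ranged over 1.87, 3.09 and 7.48 CPM in *T* and 8.00, 11.4 and 18.9 CPM in *T* + *WSD* (log2 fold change 1.54 ± 0.43, edgeR adjusted p = 0.0384). The lower genes were WNT3 and DDT, an enzyme related to the cytokine MIF (log2 fold change -0.97 ± 0.24, edgeR adjusted p = 0.025). In this fit CETP, ABCA1 and LEP were not called. CDC42BPA, VPS13C, ERC1, ZNF589, KLF8 and NIN, all higher, and DMAP1, lower, had an edgeR adjusted p under 0.05 but changed by less than 1.5-fold. CCDC3, a protein secreted by adipocytes and endothelium, had 1.19 ± 0.38 and also did not pass (edgeR adjusted p = 0.0602).

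The same diet change without testosterone was tested between *WSD* and *C*, which share no animal with the main comparison. *C* 1 stood apart there, with summed adipocyte markers of 2306 CPM against 9252 to 15350 CPM in the other *C* animals, and mesothelial markers of 42740 CPM against 4000 to 11120 CPM. There edgeR called 0 genes (0%), the smallest adjusted p being 0.0593, although 2807 genes (18.5%) had an unadjusted p under 0.05. DESeq2 called 238 genes, 102 higher and 136 lower. A call under testosterone and none without it does not show that the effects differ. Of the 574 DEGs, 463 (80.7%) had the same sign in *WSD* against *C*, compared with 61.6% of all tested genes, and 173 (30.1%) had the same sign and an unadjusted p under 0.05, whereas 13 had the opposite sign with such a p. The median *WSD* minus *C* log2 fold change was 0.31 over the higher DEGs, -0.50 over the lower DEGs and -0.02 over all genes. Across all tested genes the 2 diet effects had Pearson r = 0.316 and Spearman rho = 0.31, values across genes, which are not independent replicates. Without *C* 1, edgeR again called 0 genes for *WSD* against *C*, 1609 had an unadjusted p under 0.05, and 449 of the 574 DEGs (78.2%) had the same sign, compared with 59.6% of all genes. *T* + *WSD* had the highest mean of all 4 groups in 349 of the 356 higher DEGs and the lowest in 217 of the 218 lower DEGs. The DEGs were chosen for a difference between *T* + *WSD* and *T*, so these counts are partly built in and are a description.

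Single genes showed how these 2 effects lay. NRCAM ranged over 0.800, 1.45 and 10.8 CPM in *C* and 0.915, 5.54 and 42.9 CPM in *WSD*, a log2 difference of 1.90 ± 0.72 that was not called. SLC24A2 ranged over 0.0562, 0.206 and 5.23 CPM in *C* and 0, 1.66 and 40.7 CPM in *WSD*, and the range of *T* + *WSD* took in 2 *WSD* animals and 1 *C* animal. ADH1B (ENSMMUG00000047850) ranged over 437, 1190 and 1829 CPM in *C* and 342, 926 and 1354 CPM in *WSD* and TM7SF2 over 32.7, 49.8 and 59.1 CPM in *C* and 26.02, 45.4 and 66.7 CPM in *WSD*, and the groups overlapped in both. The mesothelial list leaned the same way under both implants, with a median of -0.997 in *WSD* against *C*. Respiratory chain, fatty acid oxidation and TCA cycle lists had medians of 0.48, 0.44 and 0.46 there, opposite in sign to those under testosterone, and lipogenesis had 0.81 against 0.10. Without *C* 1 these medians were -0.55 for the mesothelial list, 0.38, 0.34 and 0.37 for the mitochondrial lists in the same order, and 0.61 for lipogenesis. No list was tested for this difference.

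**Figure D5:**
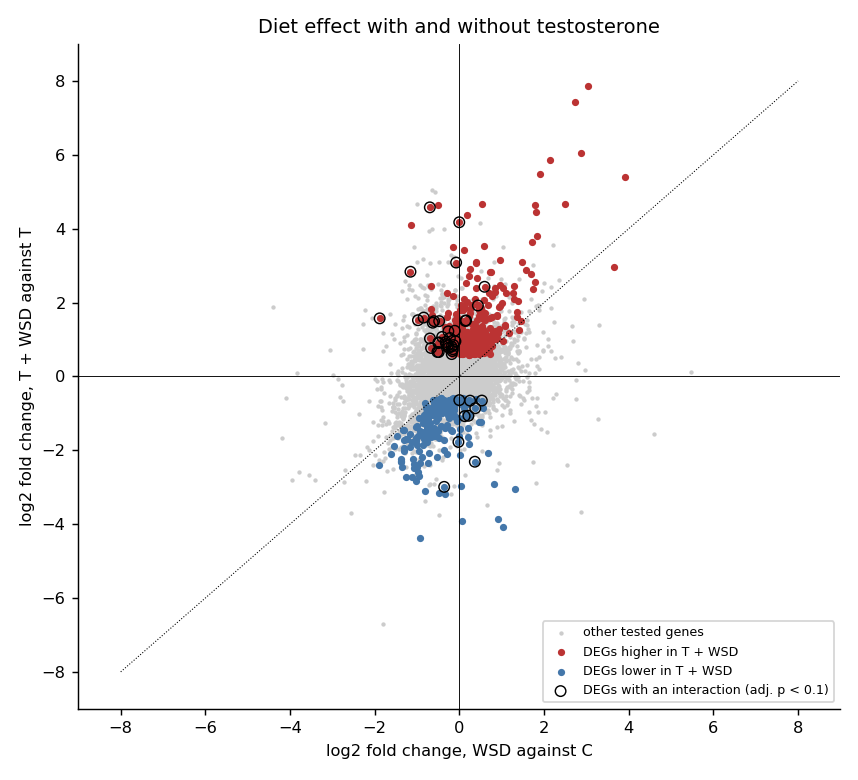
Log2 fold change of each tested gene with the diet without testosterone (*WSD* minus *C*, horizontal) and with it (*T* + *WSD* minus *T*, vertical), with the 574 DEGs of the vertical comparison coloured, the 43 of them with an interaction ringed, and equal effects on the dotted line. Over all 15207 genes Pearson r is 0.316, and 463 of the 574 DEGs have the same sign on both axes.

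The difference between the diet effects was tested directly as the interaction, (*T* + *WSD* minus *T*) minus (*WSD* minus *C*). At an adjusted p under 0.1, 123 genes (0.809%) passed, and 13.5% of all genes had an unadjusted p under 0.05. In 79 of the 123 the diet effect was more positive with testosterone, and in 75 of these it was positive with testosterone and negative without. In 44 it was more negative with testosterone, and in 41 of these negative with and positive without. Among the DEGs 43 (7.49%) passed, 34 higher and 9 lower. DEGs were chosen on a difference that the interaction contains, so that this share is a description. INPP5F, an inositol polyphosphate phosphatase, ranged over 44.4, 46.5 and 63.2 CPM in *T* and 72.2, 98.8 and 106 CPM in *T* + *WSD* and over 41.05, 56.4 and 68.7 CPM in *C* and 37.9, 53.1 and 61.2 CPM in *WSD* (interaction 1.05 ± 0.19, edgeR adjusted p = 0.0183). GPR21, an orphan G protein-coupled receptor, ranged over 5.38, 6.59 and 8.60 CPM in *T* and 12.7, 13.8 and 14.98 CPM in *T* + *WSD* and over 6.40, 7.35 and 13.2 CPM in *C* and 6.61, 7.14 and 9.24 CPM in *WSD* (interaction 1.26 ± 0.23, edgeR adjusted p = 0.0183). In both genes the *T* + *WSD* animals stood above all *T* animals, while *C* and *WSD* overlapped. TDRD6 (1.72 ± 0.31, edgeR adjusted p = 0.0197), DZIP1L (1.19 ± 0.23, edgeR adjusted p = 0.0289) and MIR5047 (1.15 ± 0.19, edgeR adjusted p = 0.00851) were the other 3 of the 5 DEGs with the smallest interaction p among those with a symbol and outside small RNA families. MIR5047 was measured as a gene model in a total RNA library, which does not measure the mature microRNA.

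Of the genes described above, ADH1B (ENSMMUG00000047850, -2.63 ± 0.54, edgeR adjusted p = 0.0396), TM7SF2 (-1.75 ± 0.35, edgeR adjusted p = 0.0337), IRS1 (-1.24 ± 0.28, edgeR adjusted p = 0.0564), ECI1 (-1.18 ± 0.28, edgeR adjusted p = 0.0812), ALDH6A1 (-1.28 ± 0.33, edgeR adjusted p = 0.0972) and MME (-2.67 ± 0.68, edgeR adjusted p = 0.0972) had a more negative diet effect with testosterone. CETP, the cholesteryl ester transfer protein, had the same direction of interaction (-3.36 ± 0.71, edgeR adjusted p = 0.0417) without being a DEG. Its level ranged over 7.63, 22.7 and 56.02 CPM in *T* and 9.65, 15.3 and 26.6 CPM in *T* + *WSD*, and over 2.49, 8.84 and 20.2 CPM in *C* and 33.8, 50.2 and 186 CPM in *WSD*. Every *WSD* animal stood above every *C* animal, with a log2 difference of 2.76 ± 0.52 that was not called (edgeR adjusted p = 0.0593), while *T* and *T* + *WSD* overlapped. The mesothelial and lipid-associated macrophage lists held no interaction gene. The number of interaction genes ranged from 40, without *T* 15, to 527, without *WSD* 21, and was 2 in the 16 libraries without the dominant gene.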

How the data were processed

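RNA-seq libraries were made from ribosome-depleted total RNA of omental WAT, 1 library for each of 24 animals, and read as single reads. The authors used FastQC 0.11.5 for read quality, Trimmomatic 0.36 for trimming and STAR 2.5.2b for alignment against rheMac8. They deposited a table of raw read counts per Ensembl gene with 1 column per animal. The counting tool and the use of strand are not given in the sources used here, so reads of a gene and of an overlapping or antisense gene cannot be told apart, and genes with near-identical copies are uncertain.

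From these counts 1 edgeR 4.0.16 model (R 4.3.3, limma 3.58.1) was fitted to all 24 animals in 4 groups of 6, with TMM normalisation, filterByExpr (minimum count 10, minimum total 15) and the robust quasi-likelihood test. P-values were adjusted by Benjamini-Hochberg over all 15207 tested genes. DEGs had an adjusted p under 0.05 and a change over 1.5-fold, the interaction was called under 0.1, and errors of log2 fold changes are standard errors. The study itself used DESeq2 1.18.1, and DESeq2 1.42.0 was run here as an alternative and gave the variance-stabilised values for the principal components. Other normalisations, filters, covariates, thresholds and fits without each animal were also run. CPM are counts per 1000000 of the effective library size, which is the counts in tested genes times the TMM factor. The factors of the 12 libraries ran from 0.513 (*T* + *WSD* 8) to 1.21, so the CPM of *T* + *WSD* 8 are higher than they would be on its plain total. The lowest total was 6899185 counts.

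Symbols were available for 12605 tested genes, 191 of them taken from the study's supplementary table of IDs. The genes described are the 10 largest increases and 10 largest decreases among DEGs with a symbol, at least 1 CPM in a group and no overlap of animals, up to 4 DEGs of each of 57 gene lists, the first 3 markers of each cell type, 42 gene names taken from the study, and the 5 DEGs with the smallest interaction p among those with a symbol outside small RNA families and at least 1 CPM in a group. The rule took 148 genes, of which 87 were DEGs, and 12 small RNA family names were left out. The comparison and the lists were chosen with earlier results of these data known. No genome sequence or gene length was used. The code was tested on simulated data.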

Additional observations from a re-analysis of the deposited data

Results flagged for a closer look

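Within groups of 6 animals, the distance of the highest or lowest animal from its nearest neighbour was compared with the range of the group by Dixon's criterion, over 230 groups of values (log2 CPM for genes, CPM for marker sums). This criterion marks about 1 group in 20 by chance. Values are in CPM and their cause was not tested.

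*T* + *WSD* 8 stood apart most often. It was the highest of its group in SVEP1 (2030 CPM, next 1220) and EPAS1 (880, next 627), and the lowest in MMP19 (22.3, next 54.2), CFB (135, next 365), WT1 (11, next 25.4), ALOX15 (56.8, next 173) and KRT19 (5.94, next 29.1). *T* + *WSD* 12 was the lowest of its group in NRCAM (18.3, next 58.8), NPR3 (57.1, next 110), LEP (592, next 1150) and INPP5F (72.2, next 92.7). *T* + *WSD* 7 was the highest in MMP7 (32.3, next 5.67) and HLF (10.5, next 8.4), and *T* + *WSD* 9 in STAB1 (772, next 627). In *T* the highest animals were *T* 15 in INPP5F (63.2, next 49.6), *T* 16 in IRS1 (244, next 154) and *T* 17 in CIDEB (14.5, next 2.54).

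Marker sums of 5 cell types also had a lone animal. These were the mesothelial sum in *T* 18 (19200, next 6200), the lymphatic endothelial sum in *T* 17 (486, next 285), the neutrophil and mast cell sum in *T* 13 (84.3, next 32.7), the red cell sum in *T* 16 (86.4, next 29) and the hepatocyte sum in *T* + *WSD* 11 (83.9, next 34.2).

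In 12 of the 100 described genes looked at, the diet effect differed with and without testosterone (edgeR interaction test, adjusted p under 0.1). Over all tested genes 0.809% passed. GPR21, TDRD6, INPP5F, DZIP1L and MIR5047 were described because of their small interaction p, so their passing was fixed in advance. The interaction was positive for GPR21 (1.26, adjusted p = 0.0183), TDRD6 (1.72, 0.0197), INPP5F (1.05, 0.0183), DZIP1L (1.19, 0.0289) and MIR5047 (1.15, 0.00851). It was negative for CETP (-3.36, 0.0417), TM7SF2 (-1.75, 0.0337), ADH1B ENSMMUG00000047850 (-2.63, 0.0396), IRS1 (-1.24, 0.0564), ECI1 (-1.18, 0.0812), ALDH6A1 (-1.28, 0.0972) and MME (-2.67, 0.0972).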

How the results depend on the processing

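DESeq2 called 1090 DEGs (715 higher, 375 lower), 238 for *WSD* against *C* and 483 interaction genes, and 567 of the 574 edgeR DEGs were among its calls. It moved the median log2 fold change of all genes from -0.03 to 0.079. A fit to only the animals compared gave 1059 DEGs (664 and 395). For *WSD* against *C* this kind of fit, legacy=FALSE and the set of 8 libraries as a covariate each gave 1 DEG. Without a fold threshold there were 988 DEGs, 486 of them lower and 50.8% higher, and with a fold over 2 there were 340 (209 and 131). The 16 libraries without the dominant gene gave 308 DEGs (199 and 109), 2 interaction genes, 1 lower mesothelial marker and 0 higher lipid-associated macrophage genes. Without a count filter there were 38 interaction genes and 0 such macrophage genes, and with 10 counts required in every animal 130 lower DEGs and 3 such genes. With mesothelial markers as a covariate there were 0 DEGs (0 higher, 0 lower), 0 calls in either list and 81 interaction genes. The log2 fold changes of PLIN1 (-0.377), CFB (0.185) and UPK3B (0.107) changed sign. The covariate is the mean level of the mesothelial list itself, which holds UPK3B. That fit therefore cannot decide whether members of the list differ. An interaction threshold of 0.05 left 44 genes. The cause of these differences was not tested.

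Leaving out 1 animal gave 238 to 828 DEGs (164 to 522 higher, 62 to 306 lower, 59% to 75.4% higher), 0 to 59 for *WSD* against *C*, 40 to 527 interaction genes, 4 to 9 mesothelial markers and 0 to 6 macrophage genes. The count of DEGs was 332, 315, 340 and 335 without *T* 13, 16, 17 and 18, and 365, 252, 274, 238 and 365 without *T* + *WSD* 7, 8, 9, 10 and 12. For *WSD* against *C* it was 59 without *WSD* 19, 4 without *C* 2 and 3 without *C* 5. Of the 87 DEGs described, 31 were called in all 24 such fits, and 21 of these also in every other fit that tested them, at the same thresholds, except the covariate fit. Of the 21, 5 were not tested in 1 of these fits and 6 are under 2-fold. The 21 were SLC24A2, NRCAM, BHMT2, MMP7, CRYAB, ADAMTS5, NQO1, SVEP1, GPR21, TFRC, INPP5F, FTL, DZIP1L, BCAT2, IRS1, ALDH1A3, ALDH6A1, TM7SF2, KLK11, ASIC2 and ADH1B (ENSMMUG00000047850). Of the 87, 56 were lost in at least 1 of the 24 fits and 36 in 6 or more. ECI1 and CFB were lost in 17 of them, RGS5 in 16 and PLIN5 in 14. Calls were also gained: LEP, DKK2, CCDC3 and ABCA1, not called with all animals, were called in 2, 5, 2 and 3 of the 24 fits. These 4 genes, CD36 and VWF were also called in some of the other alternatives. The PC1 difference kept its direction and stayed under 0.05 in every alternative (exact permutation p at most 0.039). No paired analysis was possible because the replicate numbers of the groups do not overlap.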

Other observations

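Gene models named as signal recognition particle RNA or small nucleolar RNA had positive median diet effects under testosterone and negative ones without it. Of 233 tested gene IDs named as signal recognition particle RNA, the RNA core of the complex that docks ribosomes to the endoplasmic reticulum, 12 were higher and none lower, with a median log2 fold change of 1.504 in *T* + *WSD* against *T* and -0.58 in *WSD* against *C*. Of 118 small nucleolar RNA genes, which guide chemical changes of ribosomal RNA, 1 was higher and none lower, with medians of 0.31 and -0.49. The 9 microRNA gene models had medians of 0.27 and 0.05, with 1 higher and none lower. Beside these counts, 2.34% of all tested genes were higher and 1.43% were lower. Reads could be split among similar copies, above all among the IDs named as signal recognition particle RNA, so single values there are uncertain. The summed level of the 3 IDs named RF00017, the family name of this RNA, had a lowest, median and highest of 6795, 7672 and 9926 CPM in *T*, 7948, 9895 and 11710 CPM in *T* + *WSD*, 9022, 11260 and 17490 CPM in *C*, and 5294, 7101 and 10060 CPM in *WSD*, and the *T* and *T* + *WSD* ranges overlapped.

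Several interaction genes with small adjusted p, picked out after their values were seen, had diet effects of less than 2-fold. ANKRD10 had log2 fold changes of 0.43 with testosterone and -0.34 without (interaction adjusted p = 0.000461, edgeR), and PNISR, an RNA-binding protein of nuclear speckles, 0.42 and -0.37 (0.00109). LUC7L3, a splicing factor, had 0.35 and -0.65 (0.0197). None of these 3 was a DEG in *T* + *WSD* against *T*. Other genes with small adjusted p moved further, among them ENSMMUG00000047687, which has no symbol, with 1.07 and -0.41 (0.00109), and a gene ID named Y_RNA, with 1.57 and -1.88 (0.00179), and both were DEGs. Of the 79 genes with a positive interaction 21 had no symbol, compared with 1 of the 44 with a negative interaction. Among all 15207 tested genes 2602 had no symbol, and the difference between these shares was not tested.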
